A study of Mus musculus with 15 samples.

Results

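Monocytes of the mouse aorta were examined in single-cell RNA counts from 15 libraries, where 881 of 128019 cells (0.688%) met a rule based on detected genes. A member had at least 2 of the monocyte genes Chil3, Ly6c2, Adgre4, Treml4, Gpr141 and Sirpb1c and at least 2 of the myeloid genes Csf1r, Lyz2, Fcer1g and Tyrobp. It had at most 1 of the macrophage genes Mrc1, Cd163, Folr2, Retnla and Cd209a, no UMI (unique molecular identifier, 1 captured RNA molecule) of Cd3e, Ms4a1, Cdh5 or Csf3r, and at most 1 UMI of Lum and Pdgfra together. The members were thus chosen by measured genes, and the levels of those genes are given as a description. Of the 881 cells, 431 had Adgre4 or Treml4 and neither Chil3 nor Ly6c2 (Adgre4/Treml4 cells), 113 had Chil3 or Ly6c2 and neither Adgre4 nor Treml4 (Chil3/Ly6c2 cells), 321 had genes of both pairs and 16 had none of the 4.

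Aortas came from male and female C57BL/6N mice given vehicle or fisetin, a plant flavonol studied as a senolytic, by oral gavage for 1 week, with 2 weeks off and 1 week on again, and were collected 1 to 2 weeks after the last dose. There were 4 libraries of young mice on vehicle (Y VEH), 4 of young mice on fisetin (Y FIS), 3 of old mice on vehicle (O VEH) and 4 of old mice on fisetin (O FIS). The labels give ages of 3 and 27 months, while the study's methods give the young mice a higher age. Each library pooled cells of 3 mice of 1 sex according to the labels (F, female; M, male), while the study's methods allow for fewer mice in some pools, so the library is the replicate and differences between mice within it cannot be seen.

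Monocytes are blood leukocytes made in the bone marrow. In the mouse, classical monocytes carry much Ly6C and the chemokine receptor CCR2, leave the blood at sites of inflammation and can become macrophages there. Nonclassical monocytes carry little Ly6C and much CX3CR1, depend on the nuclear receptor Nr4a1, patrol the inner surface of vessels and arise largely from classical monocytes. A dissociated aorta therefore can hold monocytes of the vessel wall as well as cells that stuck to its lumen or came with residual blood, and the counts do not separate these.

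Libraries held between 49964001 and 74587567 UMIs and between 6372 and 14805 cells that passed the study's limits on detected genes and mitochondrial RNA. In each of the 15 libraries a pair of sex-linked genes went with the labelled sex. Any 2 libraries shared 8 to 51 cell barcodes (median 20 over 105 pairs), and no shared barcode belonged to a monocyte in both. The male Y FIS libraries, M1 and M2, stood apart: 0.75% and 0.63% of their cells had 2 of the 4 myeloid genes, against 8.69% to 55.6% in the other 13 libraries, and they held 7 and 2 monocytes. They are given with and without their values for cell shares, and they had too few monocytes for tests of gene levels, which therefore rest on Y FIS F1 and F2 alone. In Y VEH F1, 55.6% of all cells carried 2 myeloid genes.

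The members were then described with genes the rule had not used. The bar was detection in over 10% of the members. Some macrophage and dendritic cell markers, given below, passed it too, so it cannot settle the label by itself. All 12 further monocyte genes, among them Ccr2, Plac8, Vcan, Hp, Cx3cr1, Nr4a1, Ace, Pou2f2, Spn, Eno3 and Pglyrp1, were detected in over 10% of the members, with a summed level between 2388 and 6228 CPM per library over 13 libraries, where CPM (counts of a gene scaled to an equal total for every sum of cells) is the level used throughout. The genes of the rule itself, whose share in the members follows from the choice, show how often they were found in other cells. Lyz2, the lysozyme of myeloid cells, had a UMI in 98.6% of the members and 98.8% of the macrophages, but also in 38% of B cells and 30.0% of endothelial cells. Treml4, a receptor of nonclassical monocytes, had a UMI in 65.5% of the members, 0.341% of B cells and 0.0586% of endothelial cells, at median depths of 9695, 6736 and 4468 UMIs per cell. Adgre4, an adhesion receptor, was in 76.6% of the members and 21.1% of the macrophages. At least 2 of the 6 monocyte genes were found in 65 of 11726 B cells (0.554%) and 6 of 35861 endothelial cells (0.0167%). B cells had Ms4a1, Cd79a and Cd79b and no Cdh5 or Cd3e. Endothelial cells had Cdh5, Pecam1 and Cldn5 and no Ms4a1, Cd3e or Ptprc, so their choice was stricter and these shares are not like for like. Macrophages had at least 2 of the macrophage genes and at most 1 of the 6 monocyte genes, which limits Adgre4 in them. Free RNA, doublets and expression in these cells cannot be told apart.

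Genes of other cells were present too. Macrophage markers summed to between 663 and 15503 CPM per library in the members and between 9252 and 28102 CPM in the macrophages, and 8 of the 14 were detected in over 10% of the members. Hemoglobin transcripts of red cells summed to between 82.2 and 141822 CPM, and neutrophil markers to between 10.3 and 15537 CPM. For dendritic cells, 3 of 10 markers (Flt3, Zbtb46 and Clec10a) were in over 10% of the members, and Xcr1, a mark of cross-presenting dendritic cells, was in 7.60%. Cd3e, Ms4a1, Cdh5 and Csf3r were at 0 by the rule.

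**Figure D1:**
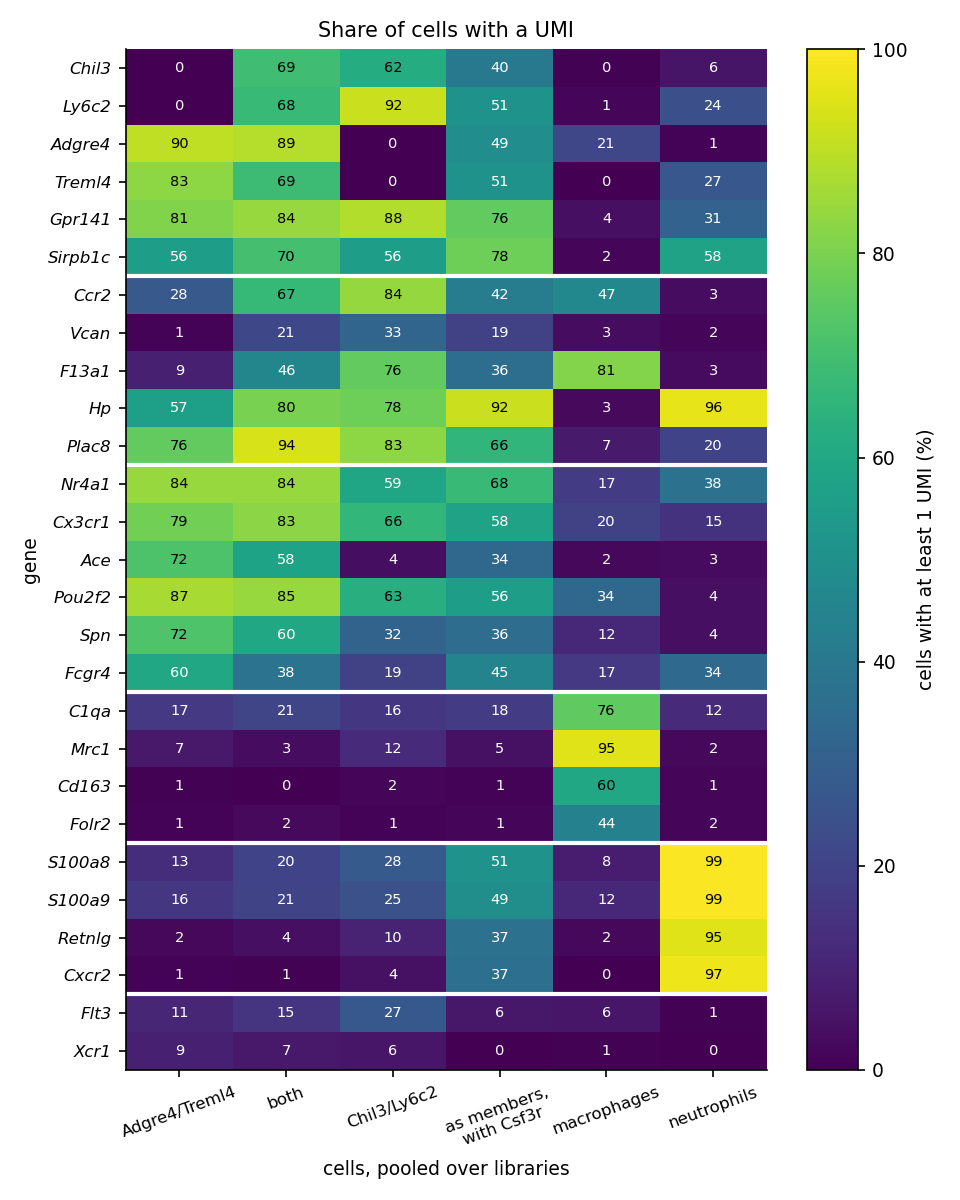
Percentage of cells with at least 1 UMI of each gene (rows), pooled over libraries, in Adgre4/Treml4 cells, cells with both pairs, Chil3/Ly6c2 cells, cells that met the rule but for Csf3r, macrophages and neutrophils (columns). The zeros of Chil3, Ly6c2, Adgre4 and Treml4 in Adgre4/Treml4 and Chil3/Ly6c2 cells follow from the definition, while Ace, which it did not use, was in 72.2% of Adgre4/Treml4 cells and 3.54% of Chil3/Ly6c2 cells.

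The criterion on Csf3r, the receptor of the neutrophil growth factor G-CSF, removed more cells than it left. Of the 4016 cells with at least 2 monocyte genes, 2699 met all other criteria, and 1818 of these carried Csf3r. Only 671 of the 1818 had 2 or more of the neutrophil genes Retnlg, Cxcr2 and Mmp9. In the 13 libraries with at least 10 members, the cells with Csf3r had 22485 ± 17711 CPM of the neutrophil alarmin S100a9 (SD over libraries), against 816 ± 1685 CPM in the members, with the former above in 13 of 13 libraries. The interleukin gene Il1b had 912 ± 369 CPM there and 105 ± 51.6 CPM in the members. H2-Ab1, a chain of the MHC class II molecule that presents antigen to T cells, had 3017 ± 1520 CPM in the members and 699 ± 613 CPM in the cells with Csf3r, again the same way in 13 of 13 libraries. These sets were separated by measured genes, so the values are a description. The values for cells with Csf3r include the 671 with neutrophil genes, and the remaining cells with Csf3r were not described apart.

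At the threshold itself, 206 members carried exactly 2 of the 6 monocyte genes and 701 cells that met all other criteria carried exactly 1. Hp, the hemoglobin-binding haptoglobin, had 428 ± 179 CPM in all members and 23.8 ± 38.2 CPM in the cells with 1 gene. The largest number of members, 275, carried 4 of the 6 genes, and 48 carried all 6.

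The 6 genes lie on 4 chromosomes of GRCm39. Chil3, which encodes a chitinase-like protein, is at chr3:106054870-106074880 on the minus strand, and Sirpb1c, a signal-regulatory protein gene, is at chr3:15817337-15902692, also minus. Ly6c2, which encodes the Ly6C surface protein, is at chr15:74980003-74988467 on the minus strand. Ly6c2 has a near-identical neighbor, Ly6c1, which endothelial cells express strongly, so reads of the pair may have been split or discarded in counting and the Ly6c2 counts are uncertain to that extent. Adgre4 is at chr17:56056984-56175274 and Treml4 at chr17:48571323-48582388, both on the plus strand. Gpr141, an orphan receptor gene, is at chr13:19933846-20008427 on the minus strand.

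The Adgre4/Treml4 cells and the Chil3/Ly6c2 cells differed across the genes known for nonclassical and classical monocytes. The lists of these genes, like the other lists below, were written with earlier results of these data known. Levels were compared within the 9 libraries with at least 5 cells of each kind, as a description, since measured genes had defined the kinds. All 24 genes of the nonclassical list had a higher mean level in Adgre4/Treml4 cells, 17 of them in every library, with a median log2 difference of 1.67. Of the 17 classical genes with enough counts, 12 had a higher mean level in Chil3/Ly6c2 cells, 6 of them in every library, with a median of -1.37. Over all 4262 genes with enough counts the median difference was 0.07, with 249 genes higher in Adgre4/Treml4 cells and 149 higher in Chil3/Ly6c2 cells in every library. The Adgre4/Treml4 cells were shallower, with a median of 7560 UMIs per cell against 12055, and the part of depth in the detection of a gene was not tested.

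Ace, the angiotensin-converting enzyme that nonclassical monocytes carry, had 124 CPM in Adgre4/Treml4 cells of Y VEH F1, 50.3 in Y VEH M1, 637 in Y FIS F2, 497 in O VEH F1, 404 in O VEH F2, 336 in O VEH M1, 298 in O FIS F1, 327 in O FIS M1 and 400 in O FIS M2. In Chil3/Ly6c2 cells of the same libraries it was at 0 in 6 and at 11.5, 7.05 and 2.75 CPM in Y FIS F2, O FIS M1 and O FIS M2. The groups did not overlap in Ace, with means of 341 ± 178 and 2.37 ± 4.18 CPM. Dusp16, a phosphatase that acts on stress kinases, had 667 ± 261 against 21.9 ± 11.5 CPM, also without overlap. Nr4a1 had 439 ± 178 against 93.8 ± 34.6 CPM and was higher in Adgre4/Treml4 cells of 9 of 9 libraries. The scavenger receptor Cd36 (647 ± 170 against 70.3 ± 47.6 CPM) and the IgG receptor Fcgr4 (231 ± 122 against 38.7 ± 37.7 CPM) behaved likewise. So did Pou2f2, a transcription factor (703 ± 269 against 133 ± 55.0 CPM), and Gngt2, a G protein subunit (999 ± 371 against 187 ± 88.5 CPM). Klf2, a transcription factor of quiescence, was higher in 8 of 9 libraries, and Cebpb, which nonclassical monocytes need, in 5 of 9.

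On the classical side, F13a1, the A subunit of coagulation factor XIII, had 489 CPM in Chil3/Ly6c2 cells of Y VEH F1, 1289 in Y VEH M1, 1972 in Y FIS F2, 385 in O VEH F1, 701 in O VEH F2, 1343 in O VEH M1, 361 in O FIS F1, 832 in O FIS M1 and 1105 in O FIS M2. In Adgre4/Treml4 cells it lay between 4.75 and 133 CPM, so the kinds did not overlap. Ccr2 had 857 ± 400 against 220 ± 175 CPM and was higher in Chil3/Ly6c2 cells of 8 of 9 libraries, the exception being O VEH F2 with 176 CPM in Chil3/Ly6c2 cells and 202 CPM in Adgre4/Treml4 cells. Fn1, fibronectin, was higher in 8 of 9 libraries, Hp in 9 of 9, S100a4 in 8 of 9 and Plac8, a small cysteine-rich protein, in 6 of 9. Ly6a2, a member of the Ly6 family, had 276 ± 175 against 2.26 ± 3.57 CPM.

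Cells with genes of both pairs lay between the kinds for these genes. Pooled over libraries, Ace had 334 CPM in Adgre4/Treml4 cells, 223 CPM in cells with both and 2.63 CPM in Chil3/Ly6c2 cells. Ccr2 had 221, 550 and 869 CPM in the same order, and Dusp16 661, 219 and 24.9 CPM. Since free RNA and doublets can also place both pairs in 1 droplet, their part in these values was not tested.

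Further lists also leaned to 1 side. Of 15 interferon-response genes with enough counts, 13 had a higher mean in Chil3/Ly6c2 cells, and 9 of them (Isg15, Ifi204, Ifi209, Ifi47, Bst2, Ifitm3, Ms4a4c, Slfn5 and Trim30a) did so in at least 8 of 9 libraries. Of all 4262 genes with enough counts, 486 did so. Bst2, the tetherin that holds budding viruses at the cell surface, had 290 ± 205 CPM in Chil3/Ly6c2 cells against 96.1 ± 34.4 CPM. All 7 S100 alarmin genes had a higher mean in Chil3/Ly6c2 cells, each in at least 8 of 9 libraries. S100a8 reached 5287 ± 8003 CPM there against 20.3 ± 13.5 CPM, and the granule genes Camp and Ngp, known from developing neutrophils, were higher in 5 and 6 of the 9 libraries with wide spreads. Of the hemoglobin genes, Hbb-bt had 4307 ± 4585 CPM in Adgre4/Treml4 cells and 826 ± 1979 CPM in Chil3/Ly6c2 cells, yet a UMI in 15.3% and 15.0% of the cells. Hbb-bs (25659 ± 21841 against 7257 ± 10668 CPM), Hba-a1 and Hba-a2 had differences of the same sign in at least 7 of 9 libraries.

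**Figure D2:**
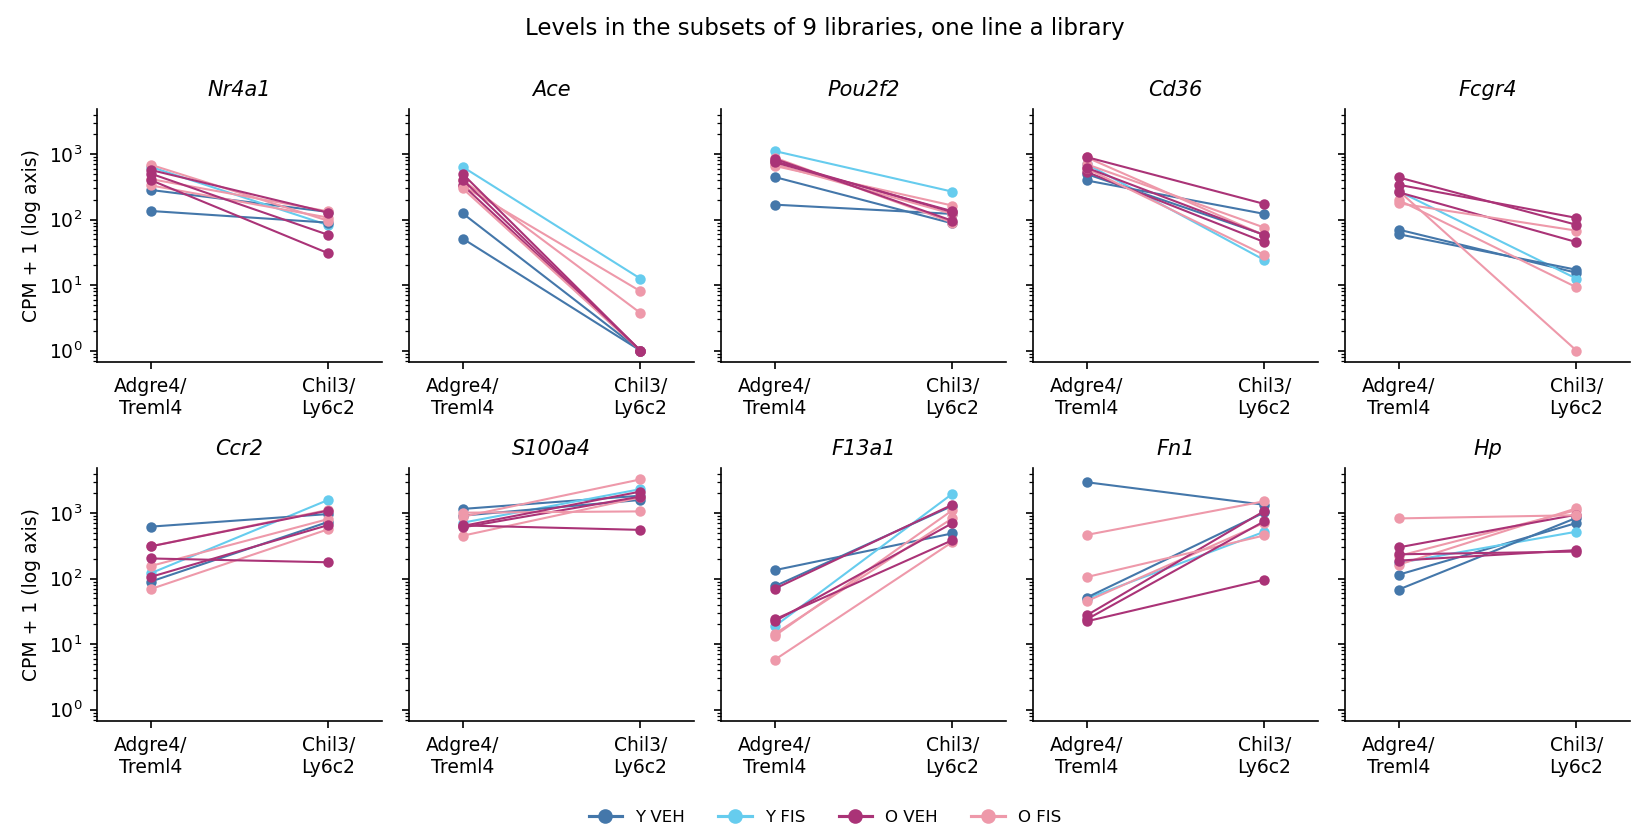
Levels (CPM + 1, log axis) of nonclassical genes (Nr4a1, Ace, Pou2f2, Cd36, Fcgr4) and classical genes (Ccr2, S100a4, F13a1, Fn1, Hp) in Adgre4/Treml4 cells and Chil3/Ly6c2 cells, with 1 line per library for 9 libraries, colored by group. Every line of Ace and Nr4a1 falls from left to right and every line of F13a1 and Hp rises.

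Against the macrophages of the same libraries, monocytes had higher levels of blood monocyte genes and lower levels of several genes of resident macrophages, as a description, since both sets of cells were chosen by measured genes. Plac8 had 1782 ± 617 CPM in monocytes and 33.3 ± 29.2 CPM in macrophages, and was higher in 13 of 13 libraries. Gngt2 (776 ± 273 against 32.8 ± 29.8 CPM), Hp (428 ± 179 against 3.52 ± 1.92 CPM), the integrin gene Itgal (421 ± 184 against 11.5 ± 11.1 CPM) and the glutathione reductase gene Gsr (464 ± 146 against 24.2 ± 6.62 CPM) were also higher in all 13. Fcrls, an Fc receptor-like gene of resident macrophages that the rule did not use, had 5.70 ± 7.95 CPM in monocytes and 582 ± 81.2 CPM in macrophages. The complement gene C1qa had 445 ± 466 against 2936 ± 820 CPM. Ccr2 and Lyz2 did not part them: Ccr2 was higher in macrophages of 10 of 13 libraries, at 587 ± 135 against 466 ± 185 CPM, and Lyz2 in monocytes of 8 of 13.

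The first comparison between groups asked whether the share of monocytes among aortic cells differed with age or fisetin. Monocytes were 0.450% of the cells in Y VEH F1 (38 cells, exact 95% binomial interval 0.318 to 0.617), 0.183% in F2 (16 cells), 0.300% in M1 (22 cells) and 0.653% in M2 (42 cells). In O VEH they were 0.800% in F1 (51 cells), 1.09% in F2 (112 cells) and 1.07% in M1 (91 cells), so every O VEH library lay above every Y VEH library. The means were 0.987% ± 0.162 (SD, n = 3) and 0.396% ± 0.203 (n = 4), a difference of 0.591 percentage points. The difference did not pass a two-sided exact permutation test (p = 0.0571, Benjamini-Hochberg adjusted p = 0.229 over 4 contrasts). The smallest p that 3 against 4 libraries can give is 0.0286. A contrast alone at this p among the 4 contrasts has an adjusted p of 0.114. An adjusted p under 0.05 would need other contrasts to reach the smallest p too, so it was hardly within reach. With a share of cells, a gain of monocytes and a loss of other cells cannot be told apart, and the intervals cover counting error only.

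Other ways of choosing the cells gave differences of the same sign, and no adjusted p was under 0.05. For the permutation tests such a value was hardly within reach, since 0.0286 alone among the contrasts adjusts to 0.114. Their adjusted p therefore cannot decide whether the shares differed. The difference was 0.573 percentage points with no filter on cells, 0.581 without doublets called by Scrublet and 2.76 with myeloid cells as the denominator, each with an exact permutation p of 0.0571. In Y VEH F1, 4696 of 8452 cells counted as myeloid. Monocytes were 0.809% of these, against 2.10% to 3.79% in the other Y VEH libraries, which lowers the Y VEH mean with that denominator. A model of the cell counts in edgeR gave a log2 difference of 1.18 (edgeR adjusted p = 0.544). The groups did not overlap in the choices given next. When at least 3 of the 6 monocyte genes were needed, the shares were 0.768% ± 0.121 in O VEH and 0.229% ± 0.126 in Y VEH (exact permutation p = 0.0286, adjusted p = 0.114). Without the Csf3r criterion, leaving out cells with 2 of the 3 neutrophil genes instead, they were 2.21% ± 0.560 and 0.894% ± 0.445 (exact permutation p = 0.0286, adjusted p = 0.114). With every cell thinned to 1500 UMIs, which takes depth out of the detection of markers, they were 1.81% ± 0.281 and 0.574% ± 0.261 (exact permutation p = 0.0286, adjusted p = 0.114). Thinning removes shallower cells and turns many genes to 0, the excluding ones included, so its level is not that of the other counts. With no macrophage gene allowed, the difference was 0.473 points (exact permutation p = 0.0286, adjusted p = 0.0571).

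With fisetin, no difference in the share passed the test, whose adjusted p has the limit given above. In O FIS, monocytes were 1.81% of the cells in F1 (149 cells), 0.412% in F2 (29 cells), 0.550% in M1 (55 cells) and 1.77% in M2 (161 cells). Of these libraries 2 lay above and 2 below all of O VEH, and the mean of 1.13% ± 0.756 (n = 4) differed from that of O VEH by 0.147 percentage points (exact permutation p = 0.657, adjusted p = 0.876). O FIS and Y VEH overlapped and differed by 0.737 percentage points (exact permutation p = 0.143, adjusted p = 0.286). With no macrophage gene allowed they did not overlap and differed by 0.594 points (exact permutation p = 0.0286, adjusted p = 0.0571). In Y FIS, monocytes were 0.567% of the cells in F1 (39 cells), 0.946% in F2 (67 cells), 0.0473% in M1 (7 cells) and 0.0229% in M2 (2 cells). The mean of 0.396% ± 0.444 (n = 4) differed from Y VEH by less than 0.001 percentage points (exact permutation p = 1, adjusted p = 1). Without M1 and M2 the Y FIS mean was 0.756% ± 0.268 (n = 2), 0.360 points above Y VEH (exact permutation p = 0.2, adjusted p = 0.267). Y VEH enters 3 of the 4 contrasts and O VEH 2, so the contrasts are not independent.

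**Figure D3:**
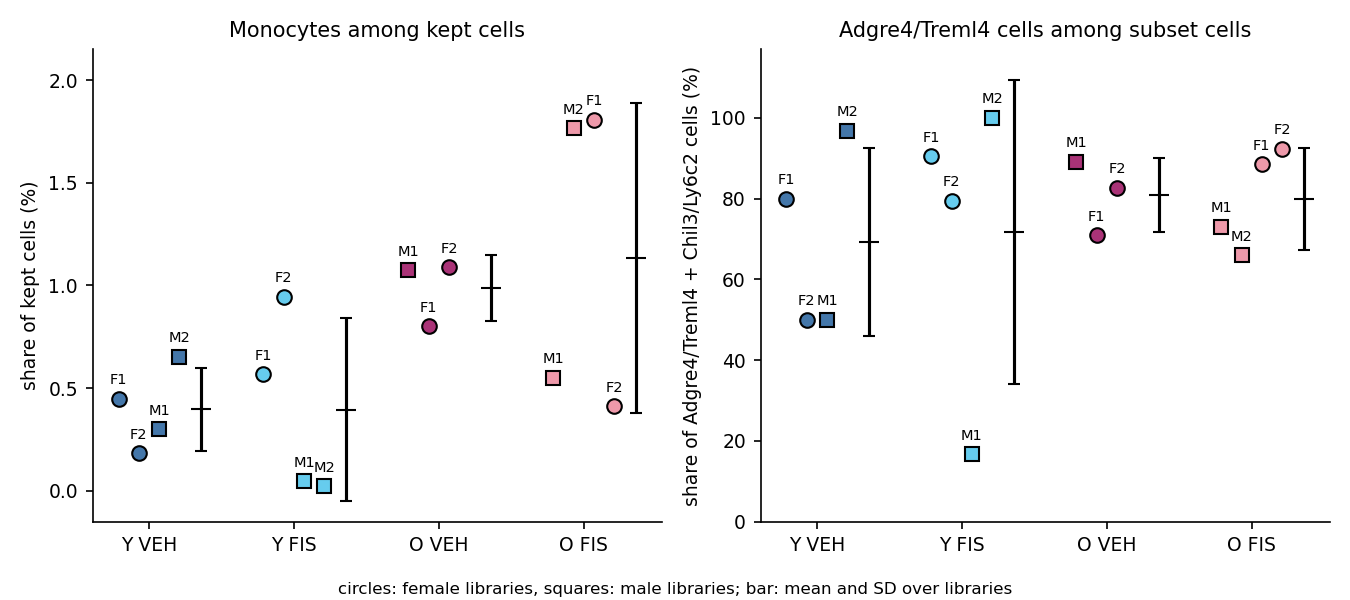
Monocytes as a percentage of kept cells (left) and Adgre4/Treml4 cells as a percentage of the cells of both kinds (right), by group, with 1 point per library (circles female, squares male) and a bar for the mean and SD. The 3 O VEH libraries (0.800% to 1.09%) sit above the 4 Y VEH libraries (0.183% to 0.653%), while the O FIS libraries reach from 0.412% to 1.81%.

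The balance of the kinds did not differ between groups beyond the spread of the libraries. Among Adgre4/Treml4 and Chil3/Ly6c2 cells together, the former made up 80%, 50%, 50% and 96.9% in Y VEH F1, F2, M1 and M2. They made up 71.0%, 82.7% and 89.1% in O VEH F1, F2 and M1, and 88.5%, 92.3%, 73.0% and 65.9% in O FIS F1, F2, M1 and M2. In Y FIS the values were 90.5% and 79.5% in F1 and F2, and 16.7% and 100% in M1 and M2, where they rest on 6 cells and 1 cell. O VEH had a mean of 80.9% ± 9.18 and Y VEH of 69.2% ± 23.2 (exact permutation p = 0.429, adjusted p = 0.857). With 1 library left out the difference ran from 5.27 to 20.9 percentage points, and it was 23.9 points when 3 of the 6 monocyte genes were needed and 22.6 points with no macrophage gene allowed, with overlap in both. With every cell thinned to 1500 UMIs the shares were lower, at 58.7% ± 13.3 in O VEH, 40.3% ± 28.4 in Y VEH and 51.3% ± 9.94 in O FIS, and O VEH and Y VEH again overlapped (exact permutation p = 0.371, adjusted p = 0.514). Thinning turns genes of a pair and excluding genes to 0, so other cells are counted. Chil3/Ly6c2 cells went from 9, 13 and 7 to 44, 30 and 50 in O VEH F1, F2 and M1. In Y VEH F1, F2, M1 and M2 they went from 5, 4, 7 and 1 to 15, 13, 22 and 10. The thinned shares are thus not those of the same monocytes. Y VEH F2 and M1 rest on 8 and 14 cells, for which the exact 95% binomial intervals ran from 15.7% to 84.3% and from 23% to 77%.

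With age, RNA levels within all monocytes gave no differentially abundant RNA (DAR), which needed an adjusted p under 0.05, a log2 fold change beyond 0.25 and a UMI in over 10% of cells in at least 1 of the groups. Counts were summed over the monocytes of each library, and the 13 libraries with at least 10 such cells entered a quasi-likelihood fit in edgeR with sex as a term. Of 7956 RNAs tested between O VEH and Y VEH, 0 (0%) were DARs by edgeR, 1152 had an unadjusted p under 0.05, and DESeq2 called 143. DESeq2 gave no adjusted p for 5244 of the 7956 RNAs, so its count rests on fewer RNAs. At that unadjusted level 570 RNAs (7.16%) were higher and 582 (7.32%) lower in O VEH. The libraries of the groups did not overlap for 523 RNAs higher (6.57%) and 483 lower (6.07%) in O VEH. Without Y VEH M2, 45 were DARs. The 6 RNAs named next had the smallest p in each direction, and none passed.

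Fcgr4 (chr1:170846466-170857330, plus strand, GRCm39), an activating receptor for IgG, had 51.7, 68.1, 33.9 and 56.1 CPM in monocytes of Y VEH F1, F2, M1 and M2, and 198, 242 and 184 CPM in O VEH F1, F2 and M1. The groups did not overlap, and the log2 difference was 1.91 (SE 0.34, edgeR adjusted p = 0.0773). Camk2d (chr3:126389945-126639982, plus strand), a subunit of the calcium/calmodulin-dependent kinase II, had 141, 78.5, 249 and 279 CPM in the 4 Y VEH libraries in the same order and 523, 576 and 674 CPM in O VEH, also without overlap. Its log2 difference was 1.77 (SE 0.29, edgeR adjusted p = 0.0555). Rgs5 (chr1:169483036-169524887, plus strand), a regulator of G protein signaling known from pericytes, had at most 4.70 CPM in Y VEH and 20.1, 48.5 and 51.3 CPM in O VEH F1, F2 and M1 (edgeR adjusted p = 0.0773). Smooth muscle markers summed to between 16.4 and 64.2 CPM in Y VEH monocytes and between 19.7 and 283 CPM in O VEH monocytes, and their part in the Rgs5 value was not tested.

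In the other direction, Cmss1 (chr16:57122363-57427253, minus strand), a ribosomal small subunit factor, had 2622, 1916, 1978 and 2445 CPM in Y VEH F1, F2, M1 and M2 and 854, 495 and 884 CPM in O VEH F1, F2 and M1. The log2 difference was -1.58 (SE 0.25, edgeR adjusted p = 0.0555). Cdk8 (chr5:146167823-146241320, plus strand), a kinase of the Mediator complex, had 362, 267, 198 and 391 CPM in Y VEH and 127, 93.6 and 107 CPM in O VEH, a difference of -1.52 (SE 0.24, edgeR adjusted p = 0.0555). Tbca (chr13:94925382-94979489, plus strand), a tubulin chaperone, had 254, 293, 237 and 262 CPM in Y VEH and 161, 122 and 105 CPM in O VEH (log2 difference -1.08, edgeR adjusted p = 0.0841). For each of the 3 no O VEH library reached the lowest Y VEH library. For 2 of them the age difference was also set against that in macrophages: the difference in monocytes minus that in macrophages was 0.10 (SE 0.27) for Cdk8 and 0.11 (SE 0.23) for Cmss1 on the log2 scale.

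Within Adgre4/Treml4 cells, 2 of 4735 RNAs (0.0422%) were DARs with age, both lower in O VEH. The test had 2 Y VEH libraries, F1 and M2, since F2 and M1 held 4 and 7 such cells. Cdk8 had 519 and 443 CPM in Y VEH F1 and M2 and 170, 102 and 119 CPM in O VEH F1, F2 and M1, and fell by 1.93 on the log2 scale (SE 0.26, edgeR adjusted p = 0.00771). Pdlim1, a cytoskeletal adaptor with a PDZ and a LIM domain, had 160 and 102 CPM in Y VEH and 20, 29.2 and 20.1 CPM in O VEH, and fell by 2.48 (SE 0.33, edgeR adjusted p = 0.00771). Neither was called without O VEH F2 or without O VEH M1, where 0 DARs were left. DESeq2 called 27 RNAs and gave no adjusted p for 3855 of the 4735. Chil3/Ly6c2 cells reached 10 cells in only 4 libraries, none of them young, and were not tested.

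**Figure D4:**
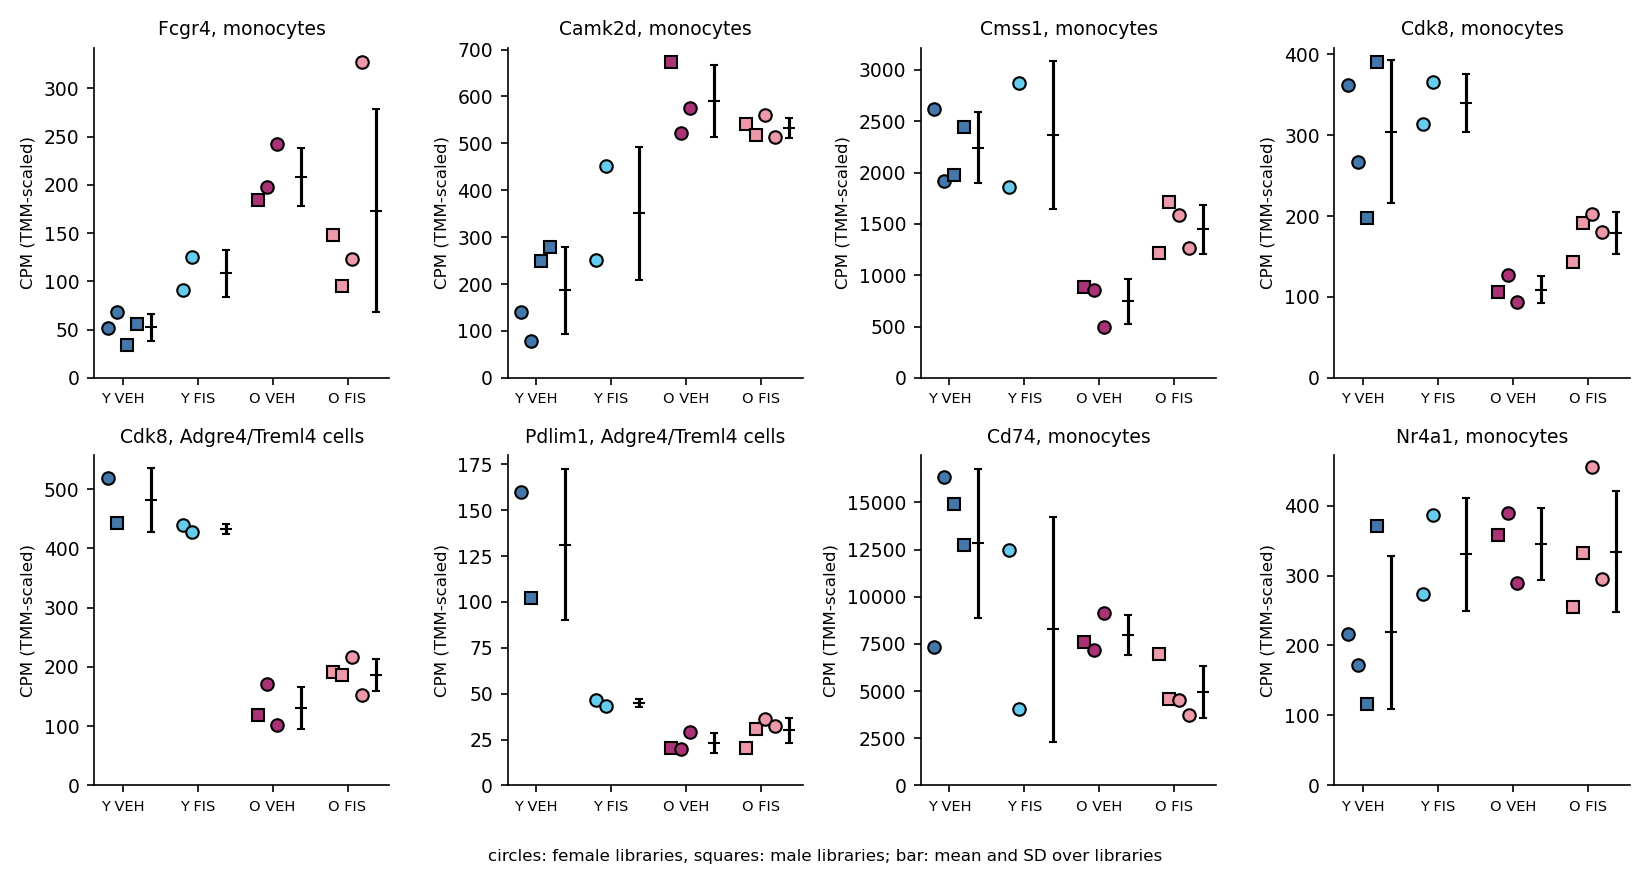
Levels (TMM-scaled CPM, linear axis) of Fcgr4, Camk2d, Cmss1, Cdk8, Cd74 and Nr4a1 in monocytes and of Cdk8 and Pdlim1 in Adgre4/Treml4 cells, by group, with 1 point per library (circles female, squares male) and a bar for the mean and SD. Cdk8 in Adgre4/Treml4 cells and Pdlim1 were lower in O VEH (102 to 170 and 20 to 29.2 CPM) than in Y VEH (443 to 519 and 102 to 160 CPM), and Fcgr4 in all monocytes lay higher in O VEH without passing the test.

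The lists for nonclassical and classical monocytes, written with earlier results of these data known, differed in how they lay with age. Of 24 nonclassical genes, 22 had a higher estimate in O VEH, 13 of them at an unadjusted edgeR p under 0.05 (54.2%, against 7.16% of all RNAs in that direction), and 0 were DARs. The median log2 difference was 0.83, against -0.02 over all 7956 RNAs, and 7 of the 24 did not overlap between the groups in that direction, against 6.57% of all RNAs. Tnfrsf1b, a TNF receptor, had 139, 115, 73.5 and 164 CPM in Y VEH F1, F2, M1 and M2 and 237, 212 and 287 CPM in O VEH F1, F2 and M1 (log2 difference 0.99, SE 0.26). Pou2f2 had 310, 141, 161 and 445 CPM in Y VEH and 520, 487 and 608 CPM in O VEH (1.01, SE 0.32). Fabp4, a fatty acid carrier that was also listed here as an endothelial marker, had 252 ± 71.4 and 444 ± 88.3 CPM. The part of endothelial RNA in the Fabp4 value was not tested. Pglyrp1, which binds bacterial peptidoglycan, had 133 ± 59.5 and 261 ± 70 CPM. Nr4a1 (219 ± 109 and 346 ± 51.4 CPM) and Cx3cr1 (166 ± 90.8 and 320 ± 62.5 CPM) had estimates of the same sign. The groups overlapped in Fabp4, Nr4a1 and Cx3cr1. Fewer of the Y VEH members carried 3 of the 6 monocyte genes: 20 of 38, 11 of 16, 11 of 22 and 26 of 42 in F1, F2, M1 and M2. In O VEH F1, F2 and M1 it was 41 of 51, 80 of 112 and 75 of 91, and the part of this in the list values was not tested. No macrophage gene of the rule was found in 19 of 38, 12 of 16, 16 of 22 and 20 of 42 members of Y VEH F1, F2, M1 and M2. In O VEH F1, F2 and M1 it was 38 of 51, 66 of 112 and 72 of 91. Dendritic cell markers, given below, summed to higher levels in Y VEH members. The part of RNA of such cells in the list values was not tested either. The list differences were smaller under other rules for members and without O VEH M1. With 3 of the 6 monocyte genes needed, 21 of 24 had a higher estimate, 5 at an unadjusted edgeR p under 0.05 against 292 of all 6900 RNAs, with a median of 0.50. Without the Csf3r criterion, 21 of 24 were higher, 6 at that level against 529 of 9703, with a median of 0.51. Without O VEH M1, 22 of 24 were higher, 6 at that level against 314 of 7733, with a median of 0.63. Of the genes named, Pou2f2 had 0.51, Tnfrsf1b 0.48 and Cx3cr1 0.33 (log2) with 3 of 6 genes needed, and Fabp4 had 0.10 without the Csf3r criterion.

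These genes also marked Adgre4/Treml4 cells, whose mean share was 69.2% in Y VEH and 80.9% in O VEH. Within Adgre4/Treml4 cells alone, 21 of the 24 genes had a higher estimate in O VEH, 9 at an unadjusted edgeR p under 0.05 (against 5.39% of all RNAs), with a median of 0.56 against -0.03 over the 4735 RNAs tested there. Between Y FIS and Y VEH, 22 of the 24 had a higher estimate in Y FIS, with a median of 0.76 against -0.03 over all RNAs. That comparison shares the Y VEH libraries, so the values are 2 readings of the same controls. In O FIS against O VEH 13 of 24 had a higher estimate, with a median of 0.01 against 0.01 over all RNAs. Of the 20 classical genes 9 had a higher and 11 a lower estimate in O VEH, with a median of -0.16. In O FIS against O VEH, which shares the O VEH libraries with the age comparison, 15 of the 20 had a higher estimate, with a median of 0.32 against 0.01 over all RNAs. Of these 3 (Fn1, Clec4d and Lyz1) had an unadjusted edgeR p under 0.05, against 1.7% of all RNAs in that direction, and 0 were DARs. The median was 0.16 without O FIS M2 and 0.18 with 3 of the 6 monocyte genes needed. Fn1 had 2394, 1534, 545 and 164 CPM in Y VEH F1, F2, M1 and M2 and 370, 144 and 191 CPM in O VEH F1, F2 and M1, so that the groups overlapped through Y VEH M2. Lyz1, a lysozyme gene so close to Lyz2 that the split of reads between them is uncertain, had 810, 314, 11.3 and 34.1 CPM in Y VEH and 6.19, 13.4 and 5.03 CPM in O VEH (log2 difference -4.92, SE 0.99, edgeR adjusted p = 0.0947).

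Interferon-response genes had mostly higher estimates with age. Of 37 tested, 30 were higher in O VEH, 6 at an unadjusted p under 0.05 (16.2%, against 7.16% of all RNAs), and 0 were DARs, with a median of 0.47 against -0.02 over all RNAs. The median ran from 0.16 without Y VEH F1 to 0.87 without Y VEH F2, and was 0.19 with 3 of the 6 monocyte genes needed, where 24 of 35 were higher. Herc6, an ubiquitin ligase for the ISG15 protein, had 16.4, 15.7, 11.3 and 28.1 CPM in Y VEH F1, F2, M1 and M2 and 65.0, 46.0 and 36.2 CPM in O VEH F1, F2 and M1 (log2 difference 1.33, SE 0.32, edgeR adjusted p = 0.190). Zbp1, a sensor of nucleic acids, had 57.4 ± 18.3 and 118 ± 45.5 CPM, with overlap through Y VEH F2 (83.8 CPM) and O VEH F2 (76.9 CPM). Oasl2, an antiviral gene of the oligoadenylate synthetase family, had 7.05, 57.6, 11.3 and 12 CPM in Y VEH and 65.0, 57.7 and 45.3 CPM in O VEH. Irf7 and Isg15 had log2 differences of 0.08 (SE 0.57) and 0.22 (SE 0.62). In O FIS against O VEH 9 of 37 had a higher estimate, with a median of -0.22 and 0 genes at an unadjusted p under 0.05.

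All 8 MHC class II genes had a lower estimate in O VEH than in Y VEH, with a median of -0.76 against -0.02 over all RNAs. Of them 1 (H2-DMa) had an unadjusted edgeR p under 0.05, against 7.32% of all RNAs in that direction. With 3 of the 6 monocyte genes needed, 6 of 8 were lower, with a median of -0.19, and without the Csf3r criterion 7 of 8, with a median of -0.42. Without O VEH M1 the median was -0.47. Cd74, the invariant chain that guides MHC class II through the cell, had 7355, 16338, 14906 and 12736 CPM in Y VEH F1, F2, M1 and M2 and 7168, 9154 and 7594 CPM in O VEH F1, F2 and M1. Y VEH F1 lay among the O VEH libraries, and the log2 difference was -0.63 (SE 0.34, edgeR adjusted p = 0.412). In O FIS, Cd74 had 4512, 3744, 6949 and 4567 CPM in F1, F2, M1 and M2, all below O VEH (log2 difference -0.75, SE 0.34, edgeR adjusted p = 1.00), and all 8 genes again had a lower estimate than in O VEH, with a median of -0.69 against 0.01 over all RNAs. Against Y VEH, whose libraries these comparisons share, all 8 had a lower estimate in Y FIS (median -0.56 against -0.03 over all RNAs) and in O FIS (median -1.40 against -0.01). In O FIS against Y VEH, 8 of 8 had an unadjusted edgeR p under 0.05, against 6.42% of all RNAs in that direction, and 0 were DARs. Within Adgre4/Treml4 cells 7 of the genes could be tested. Their median was -0.61 with age (6 lower, 1 higher) and -0.29 in O FIS against O VEH (7 lower). In both comparisons 0 had an unadjusted edgeR p under 0.05. Dendritic cell markers lay lower too: they summed to between 359 and 586 CPM in Y VEH monocytes, 209 and 286 CPM in O VEH and 123 and 305 CPM in O FIS. Their part in the MHC class II values was not tested.

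Immediate early and stress genes, which rise within minutes of stimulation or of tissue dissociation, had a lower estimate with age in 16 of 17 cases, 6 of them at an unadjusted p under 0.05 (35.3%, against 7.32% of all RNAs), with a median of -0.44 against -0.02 over all RNAs. Without O VEH F1, 15 of 17 were lower, 2 at that level, with a median of -0.29, and without Y VEH F2 the median was -0.24. Egr1, a transcription factor, had 158 CPM on average in Y VEH and 69.4 CPM in O VEH, with overlap. Ier3 had 305, 251, 144 and 38.1 CPM in Y VEH F1, F2, M1 and M2, 12.4, 20.9 and 69.4 CPM in O VEH F1, F2 and M1, and 133, 150, 66.9 and 125 CPM in O FIS F1, F2, M1 and M2. O VEH overlapped with both. In O FIS 15 of the 17 had a higher estimate than in O VEH, with a median of 0.23 against 0.01 over all RNAs, and 1 (Ier3) had an unadjusted edgeR p under 0.05, against 1.7% of all RNAs in that direction. All 12 cell cycle genes had a lower estimate in O VEH, with a median of -0.67 and 1 at an unadjusted edgeR p under 0.05 (against 7.32% of all RNAs), at a summed level between 241 and 1605 CPM in Y VEH and 370 and 696 CPM in O VEH. With 3 of the 6 monocyte genes needed, the estimates of Tubb5 (0.23) and Ube2c (2.53) were higher in O VEH. Against the same Y VEH libraries, all 12 also had a lower estimate in Y FIS, 6 at an unadjusted edgeR p under 0.05 (against 5.07% of all RNAs in that direction) and 0 of them DARs, at a summed level between 140 and 205 CPM. Within Adgre4/Treml4 cells 6 of the 12 could be tested. All 6 had a lower estimate in O VEH than in Y VEH, 3 at an unadjusted edgeR p under 0.05 (against 4.94% of all RNAs), and a higher one in O FIS than in O VEH, 4 at that level (against 1.06%). None was a DAR, and both comparisons share the O VEH libraries. In all monocytes the 12 genes split between O FIS and O VEH, with 5 higher and 7 lower estimates, a median of -0.18 and 0 at an unadjusted edgeR p under 0.05.

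The S100 alarmins split. S100a9 had 2.35, 5.24, 218 and 6.01 CPM in Y VEH F1, F2, M1 and M2 and 71.1, 1032 and 5744 CPM in O VEH F1, F2 and M1, where neutrophil markers as a whole summed to between 215 and 15537 CPM, against 11 to 613 CPM in Y VEH. The part of neutrophil RNA in the S100a8 and S100a9 values was not tested. S100a10 and S100a11 had log2 differences of -1.27 (SE 0.40) and -0.89 (SE 0.30), and S100a4 and S100a6 of -0.04 each. Genes of senescence and the senescence-associated secretory phenotype had 8 of 14 higher in O VEH and a median of 0.19. Cdkn1a, the p21 cell cycle inhibitor, had 91.6, 99.5, 36.7 and 74.1 CPM in Y VEH and 68.0, 92.0 and 82.5 CPM in O VEH (log2 difference 0.09, SE 0.29). MHC class I genes (8 of 14 higher, median 0.07), chemokines and their receptors (6 of 14, -0.30), inflammation genes (9 of 16, 0.11), myeloid transcription factors (11 of 17, 0.29) and genes of Fc receptors and phagocytosis (13 of 20, 0.16) had medians between -0.30 and 0.29, against -0.02 over all RNAs, and 0 DARs. Nlrc5, which switches on MHC class I genes, had 23.5, 5.24, 50.9 and 24.0 CPM in Y VEH F1, F2, M1 and M2 and 58.8, 53.5 and 54.3 CPM in O VEH F1, F2 and M1, without overlap (log2 difference 1.14, SE 0.33, edgeR adjusted p = 0.215). H2-Q4 had 14.1 to 20.9 CPM in Y VEH and 25.1 to 37.2 CPM in O VEH (0.83, SE 0.39), though MHC class I genes are so alike that reads may be split among them. Ctsb, the lysosomal protease cathepsin B, had 415 to 627 CPM in Y VEH and 728 to 888 CPM in O VEH (0.59, SE 0.21), and Runx1, a transcription factor of blood cells, 263 to 296 and 327 to 431 CPM (0.51, SE 0.19), both without overlap. The chemokine Ccl2 had 38.1 to 161 CPM in Y VEH and 20.1 to 48.3 CPM in O VEH, with overlap (-1.49, SE 0.46).

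**Figure D5:**
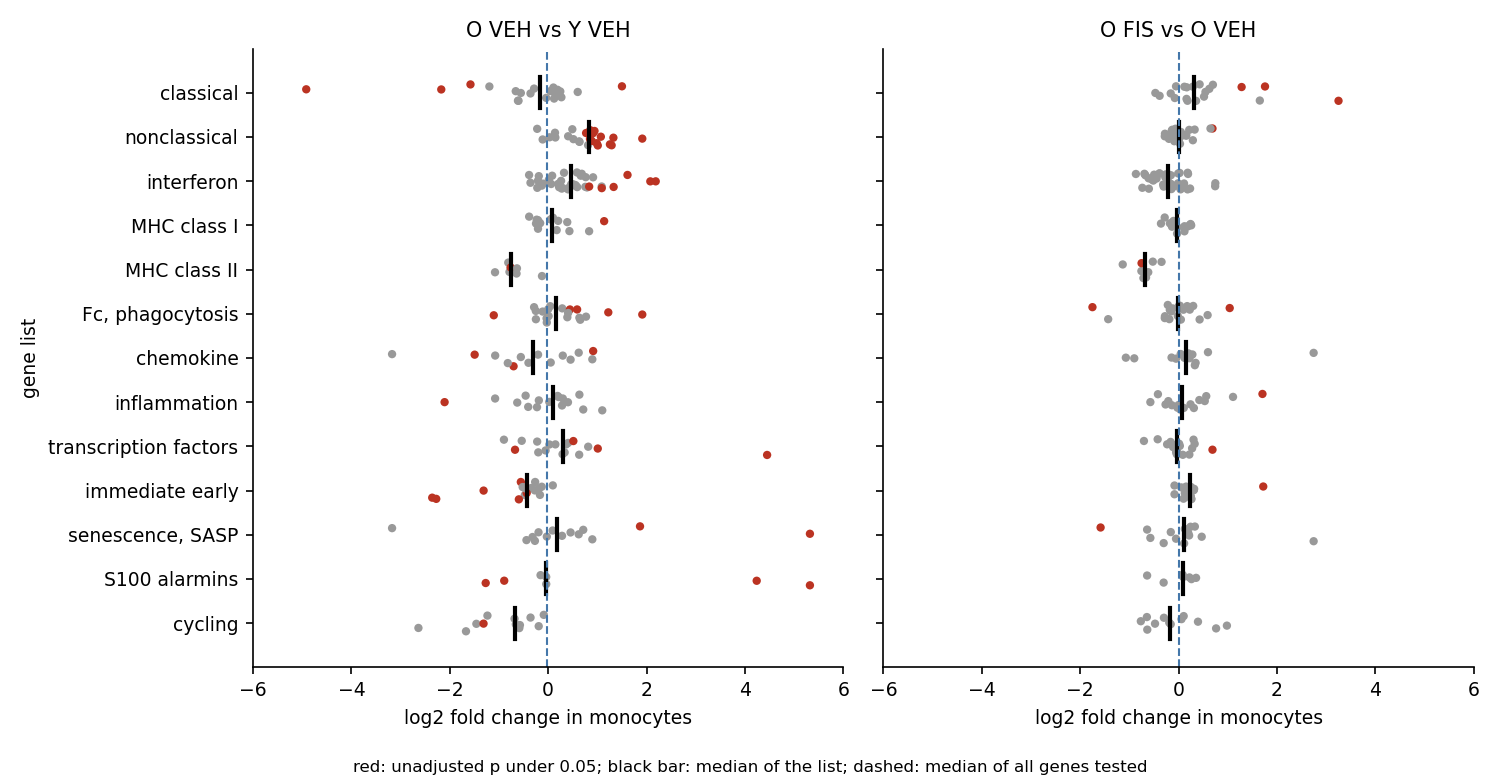
Log2 differences in monocytes for the genes of each list, O VEH against Y VEH (left) and O FIS against O VEH (right), with 1 point per gene (red, unadjusted p under 0.05), a bar at the median of the list and a dashed line at the median of all RNAs tested. The nonclassical list has its median at 0.83 with age and 0.01 with fisetin in old mice, and the MHC class II list at -0.76 and -0.69.

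Fisetin in old mice gave 0 DARs (0%) in monocytes by edgeR and 0 by DESeq2, while 284 of 7956 RNAs had an unadjusted p under 0.05, 135 (1.7%) of them with a higher and 149 (1.87%) with a lower estimate in O FIS. Within Adgre4/Treml4 cells it gave 0 of 4735 (0%), with 92 at an unadjusted p under 0.05 and 0 called by DESeq2. Cmss1 had 1590, 1269, 1212 and 1710 CPM in O FIS F1, F2, M1 and M2, above the 854, 495 and 884 CPM of O VEH F1, F2 and M1 in every library (log2 difference 0.95, SE 0.24, edgeR adjusted p = 1.00). Cdk8 lay at 203, 180, 143 and 192 CPM, again above O VEH in every library (0.75, SE 0.23, edgeR adjusted p = 1.00). Both share the O VEH libraries with the age comparison. Rbis, a ribosome biogenesis factor, had 70.6, 71.0, 88.1 and 67.5 CPM in O FIS and 47.9, 38.5 and 43.3 CPM in O VEH (0.76, SE 0.20, edgeR adjusted p = 1.00). Saa3, an acute phase protein gene, had 32.6, 7409, 0 and 242 CPM in O FIS and 1.55, 2.51 and 1.01 CPM in O VEH, so that F2 alone set its mean.

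Rgs5 had 1.81, 5.46, 14.1 and 3.27 CPM in O FIS F1, F2, M1 and M2 against 20.1, 48.5 and 51.3 CPM in O VEH (log2 difference -3.18, SE 0.54, edgeR adjusted p = 0.264). Abcc9, a potassium channel subunit known from mural cells, had at most 3.52 CPM in O FIS and 4.64 to 20.1 CPM in O VEH, and Postn, the matrix protein periostin, at most 5.46 CPM against 15.5 to 41.0 CPM. These are genes of the vessel wall rather than of monocytes, at low levels, and smooth muscle markers summed to between 4.83 and 41.4 CPM in O FIS monocytes against 19.7 to 283 CPM in O VEH. Their part in these values was not tested. Axl, a receptor for apoptotic cells, had 13.9, 13.6, 15.9 and 13.6 CPM in O FIS and 24.7, 106 and 27.2 CPM in O VEH (-1.75, SE 0.45, edgeR adjusted p = 1.00).

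In young mice the test had 2 Y FIS libraries and gave 0 DARs (0%) of 7956 by edgeR, 790 at an unadjusted p under 0.05 and 10 by DESeq2. The latter gave no adjusted p for 4782 RNAs. Maml3, a coactivator of Notch signaling, had 238 and 340 CPM in Y FIS F1 and F2 and 132, 83.8, 90.4 and 142 CPM in Y VEH (log2 difference 1.34, SE 0.26, edgeR adjusted p = 0.396). Mtm1, a lipid phosphatase, had 20.3 and 23.4 CPM against 70.5, 62.8, 42.4 and 54.1 CPM (-1.56, SE 0.30, edgeR adjusted p = 0.396), and the non-overlapping Lpar6, a lysophospholipid receptor, had 65.8 and 49.6 CPM against 14.1 to 28.1 CPM. Gm15987, a long noncoding RNA, had 263 and 324 CPM in Y FIS and 119 to 162 CPM in Y VEH, Ctdspl, a phosphatase, had 7.60 and 2.92 CPM against 18.0 to 83.8 CPM, and Adk, adenosine kinase, had 20.3 and 24.8 CPM against 38.1 to 79.9 CPM. None of the 3 overlapped, and none passed the test. Between O FIS and Y VEH 0 (0%) were DARs by edgeR, 1032 had an unadjusted p under 0.05 and DESeq2 called 82 (no adjusted p for 5090). Stat3, a transcription factor of cytokine signaling, had 246, 196, 285 and 304 CPM in O FIS F1, F2, M1 and M2, 235, 225 and 279 CPM in O VEH F1, F2 and M1, 210 and 256 CPM in Y FIS F1 and F2, and 139, 120, 127 and 146 CPM in Y VEH F1, F2, M1 and M2. Y VEH thus lay below the other 3 groups, with a log2 difference of 0.94 (SE 0.16, edgeR adjusted p = 0.100) for O FIS. Camk2d and Gm15987 were the other RNAs of smallest p in the higher direction, with log2 differences of 1.56 (SE 0.27) and 0.96 (SE 0.17). In the lower direction, Ust, a sulfotransferase, had 20.7 to 38.2 CPM in O FIS and 70.6 to 148 CPM in Y VEH (-1.78, SE 0.29, edgeR adjusted p = 0.100). The long noncoding RNA Gm20513 had 8.19 to 22.3 against 52.4 to 152 CPM, and Gpr183, an oxysterol receptor that guides the migration of immune cells, 21.8 to 35.2 against 47.0 to 119 CPM. The groups did not overlap for any of the 3.

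Whether fisetin had another effect in old than in young monocytes was tested as the interaction of age and fisetin. No RNA (0%) was a DAR by edgeR, 658 had an unadjusted p under 0.05 and DESeq2 called 4 (no adjusted p for 6170). Of the 3 RNAs with the smallest p in the higher direction, Slpi, a protease inhibitor of secretions, had 3895, 1943, 246 and 22 CPM in Y VEH F1, F2, M1 and M2, 50.6 and 61.3 CPM in Y FIS F1 and F2, 49.5, 38.5 and 47.3 CPM in O VEH F1, F2 and M1, and 276, 944, 114 and 870 CPM in O FIS F1, F2, M1 and M2. Its interaction was 8.78 (SE 1.80, edgeR adjusted p = 0.395), and Y VEH M2 lay below both Y FIS libraries. Lyz1 had 15.2 and 11.7 CPM in Y FIS and 19.9, 131, 8.81 and 55.6 CPM in O FIS beside the Y VEH and O VEH levels given above (8.12, SE 1.58, edgeR adjusted p = 0.395). Fcna, which encodes the lectin ficolin A, had 150 and 199 CPM in Y VEH F1 and F2 and 235 CPM in O FIS F2, and at most 7.63 CPM in the other 10 libraries, so that its estimate rests on few counts. Among the Y VEH libraries, Slpi, Lyz1, Fcna and Fn1 were all highest in F1 and F2. Among the O FIS libraries, Slpi, Lyz1, Fcna and Saa3 were all highest in F2. These RNAs thus share the libraries that set their values and are not separate results, and why they do was not tested. In the lower direction were Lpar6, Maml3 and Tlr7. Tlr7, a sensor of single-stranded RNA, had 39.9, 26.2, 42.4 and 50.1 CPM in Y VEH, 73.4 and 84.7 CPM in Y FIS, 80.4, 89.4 and 89.5 CPM in O VEH F1, F2 and M1, and 73.6, 62.8, 66.9 and 69.7 CPM in O FIS. Its interaction was -1.36 (SE 0.31, edgeR adjusted p = 0.395). Without the Csf3r criterion the interaction was 5.61 for Slpi, 2.57 for Lyz1 and -0.54 for Tlr7. Whether a difference was larger in monocytes than in macrophages was tested over both cell types at once. Of 10943 RNAs, 0 (0%) differed by edgeR with age and 0 (0%) with fisetin in old mice, with 960 and 333 at an unadjusted p under 0.05. Among RNAs already named, Maml3 had the difference 1.43 (SE 0.30, edgeR adjusted p = 0.264) with age, and Ier3 -2.39 (SE 0.60, edgeR adjusted p = 0.264).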

How the data were processed

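Aortic cells of 15 libraries were counted by the authors with Cell Ranger 8.0.1 against GRCm39, and the deposited values are raw UMI counts per gene and cell (the submitters' notes also name Seurat 5.2.0). Here, cells with 200 to 7000 detected genes and at most 25% mitochondrial counts were kept, as in the study. Cells and their types were chosen by marker detection, and doublets called by Scrublet (scanpy 1.11.5) were kept, with their removal as an alternative. The caller marked 0 to 4.68% of cells per library. In Y FIS F2, O FIS M1 and O VEH F1 it marked under 0.5%, and may have missed doublets, which was not tested. It marked 4 members.

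Counts were summed per library for sets of at least 10 cells and tested with edgeR 4.0.16 in R 4.3.3 (filterByExpr, TMM, group and sex, quasi-likelihood, Benjamini-Hochberg adjustment over all genes tested). CPM given for comparisons between groups are TMM-scaled, and those between kinds of cells or against macrophages are not. Shares of cells were compared by exact two-sided permutation tests in Python 3.11.15. Differences between kinds of cells are means of within-library log2 ratios of CPM with 50 CPM added, for genes with at least 200 UMIs summed. The threshold of 5 cells of each kind was chosen after seeing the data. The fit was tested on simulated counts in which 200 RNAs of above-median level were changed in O VEH. It recovered 32% of them at a log2 change of 1 and 97.5% at 2, so many smaller changes would be missed. These shares hold only for the simulated counts, whose spread was that of the fit and in which 200 RNAs were truly changed. In the real counts Fcgr4 at a log2 difference of 1.91 and Lyz1 at -4.92 did not pass. Larger changes can therefore be missed too, and 0 DARs does not exclude them.

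The members and the gene lists were chosen with earlier results of these data known. Genes are named by the 3 smallest p in each direction of a contrast and by up to 4 of the smallest p of each list, and, between the kinds of cells, by abundance within the subset lists and by the largest differences. Other genes named were chosen after their values were seen. Alternatives were DESeq2 1.42.0, RLE size factors, no low-count filter, no sex term, a replicate block, at least 20 cells, only the groups compared, each library left out, and other rules for members. Replicates are pooled libraries, so p-values measure the spread between libraries. 1 gene of the lists is not reported here.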

Additional observations from a re-analysis of the deposited data

Results flagged for a closer look

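Of 26 groups of 4 libraries examined for a value far from the rest, 4 held one, where chance gives about 1 in 20 groups. Saa3 had 7409 CPM in monocytes of O FIS F2 and at most 242 CPM in the other O FIS libraries. Rbis had 88.1 CPM in O FIS M1 and 67.5 to 71.0 CPM in the others. Tbca had 101 CPM in O FIS M2 and 150 to 153 CPM in the others. Abcc9 had 2.35 CPM in Y VEH F1 and was at 0 in the other Y VEH libraries, where any RNA seen in a single library stands out by construction, so this one says nothing about the library.

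The monocyte share differed in sign between the sexes in young mice. Y FIS minus Y VEH was 0.440 percentage points in female libraries and -0.442 in male libraries, and every Y FIS library lay on that side of the Y VEH libraries of its sex. The difference was not tested, and the male value rests on Y FIS M1 and M2, which stood apart with 7 and 2 monocytes.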

How the results depend on the processing

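Of the values that answer a comparison, 245 alternatives left the direction and the call unchanged, 43 moved a count of DARs and 22 reversed a direction. A count was taken as moved if it left 0, even by 1 RNA, or changed by over 1.5 times. The permutation calls on shares could hardly change, for the reason given above. Of the alternatives for single genes, 1200 left direction and call unchanged, 110 became significant, 7 lost significance and 3 reversed. The cause was not tested in any of these. The higher monocyte share in O VEH than in Y VEH kept its sign throughout, from 0.520 to 0.684 percentage points with 1 library left out. The difference Y FIS minus Y VEH, near 0, turned positive with 3 of 6 genes needed (0.0793), cells thinned (0.0560), myeloid cells as denominator (2.07) or no macrophage gene allowed (0.0606), and ran from -0.184 to 0.124 with 1 library left out and to 0.360 without Y FIS M1 and M2. The 2.07 includes Y VEH F1 with its large number of cells counted as myeloid. O FIS minus O VEH ran from -0.0779 to 0.387, turning negative without O FIS F1 or M2, and was -0.0847 (log2) by edgeR with a replicate block. For the share of Adgre4/Treml4 cells, Y FIS against Y VEH was -0.0835 (log2) by edgeR and -0.00965 with the block, and ran from -7.01 to 20.8 points with 1 library left out, and O FIS against O VEH from -5.93 to 3.70.

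DARs in monocytes with age numbered 143 by DESeq2, 311 without the filter on low counts, 2 without the sex term, 3 with only the groups compared, 1 with 3 of 6 genes needed and 2 without the Csf3r criterion. With 1 library left out they ran from 0 to 45, with 9 without O FIS F1 and 5 without O FIS M2. For O FIS against O VEH there were 74 without the filter, and 0 to 1 with 1 library left out. For Y FIS against Y VEH there were 10 by DESeq2, 161 without the filter, 18 with only the groups compared, and 0 to 1 with 1 library left out. For O FIS against Y VEH there were 82, 367 and 10 in that order, 3 without the Csf3r criterion, and 0 to 11 with 1 library left out (10 or 11 without Y FIS F2 or F1, 9 without Y VEH M2). For the interaction there were 4 by DESeq2, 109 without the filter, and 0 to 21 (without O FIS F1). In Adgre4/Treml4 cells, age gave 27 by DESeq2, 110 without the filter, 11 with at least 20 cells, 9 with only the groups compared, and 0 to 8 with 1 library left out (8 without Y FIS F1 or F2), and fisetin in old mice 14 without the filter. The difference between monocytes and macrophages gave 197 with age and 49 with fisetin without the filter, and 0 to 4 with 1 library left out. With 3 of 6 genes needed, the age differences of H2-DMb1 (0.15), Tubb5 (0.23) and Ube2c (2.53) turned positive.

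Same-numbered libraries did not deviate together: 2 of 16 correlations were over 0.1, between -0.196 and 0.184, so the numbers were not taken as pairs. With the replicate block the 2 DARs of Adgre4/Treml4 cells fell to 0, and no count of DARs in monocytes moved. With 16 to 161 monocytes per library outside Y FIS M1 and M2, RNAs below the count filter and Chil3/Ly6c2 cells were left out of the main tests between groups.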
